A study of Mus musculus with 5 samples.

Results

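Autophagy is the process by which a cell encloses part of its own cytoplasm in a double membrane, the autophagosome, and delivers it to the lysosome for breakdown. The ULK1 kinase complex starts the process, the class III phosphatidylinositol 3-kinase complex marks the growing membrane with the lipid PI3P, and a pair of ubiquitin-like conjugation systems attach ATG8 proteins to that membrane, where they hold the cargo receptors. In mouse hematopoietic stem cells (HSCs), the cells of the bone marrow that renew the blood, autophagy clears mitochondria and is needed for long-term maintenance, and the transcription factor FOXO3 is known to keep autophagy genes active. The genes described here are the core machinery of this process. They were chosen by name, as 38 listed symbols, and each was read from the array feature that names that gene alone, or from the brightest such feature, by its mean across the 5 arrays, where there were several. In this way 36 of the 38 were measured, of 22180 genes in all. The cargo receptor genes Optn and Bnip3l had no such feature and were not analysed here.

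The study asked how vitamin A signalling bears on HSC dormancy. C57BL/6 mice gave the hematopoietic stem and progenitor cells, which were cultured for 24 h with 5 µM all-trans retinoic acid (ATRA), the active vitamin A derivative that binds the retinoic acid receptors, or with the solvent DMSO as control, and HSCs were sorted by flow cytometry at the end of culture. The ATRA group has 2 arrays and the DMSO group 3. All cells came from the same wild-type strain and all were kept in culture, so no group shows freshly isolated HSCs. The age of the mice, and whether replicates came from separate animals or cultures, are not given in the labels, and p-values therefore measure a spread between samples that may be technical only.

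The ATRA arrays stood apart from the DMSO arrays in their whole distribution. The SD over all 41345 features was 1.77 and 1.49 in ATRA replicates 1 and 2, against 1.96 to 1.97 in the DMSO arrays, and Pearson's r across features was 0.730 between the ATRA arrays, against 0.966 to 0.978 among the DMSO arrays. Genes with high DMSO values had lower values with ATRA almost as a rule. The 2582 genes whose mean in the DMSO arrays was 8 to 9 were a median of -0.97 from that mean in ATRA replicate 1 and of -1.73 in ATRA replicate 2. This dependence of the difference on the level is called the level trend here. Each result is therefore given from the deposited values and, beside it, after a smooth curve of the difference on the DMSO mean was subtracted from each array (the level trend removed). Of 10 HSC marker genes 8 were measured, and their mean value per array was 7.90 and 6.96 with ATRA, against 8.98 to 9.13 with DMSO. These markers have high DMSO values, with a median of 8.82. Their median log2 difference was -1.38 in the deposited values and -0.13 with the level trend removed. In the latter fit 4 of the 8 were positive, 4 were negative and 0 were called. The mean of 6 neutrophil markers was 6.15 and 5.90, against 5.46 to 6.05, that of 4 macrophage markers 6.82 and 6.30, against 6.88 to 6.97, and that of 3 B cell markers 5.44 and 6.02, against 5.13 to 5.29, where the median of all features was 6.07. Of the erythroid, megakaryocyte and T cell markers 2 each were measured. Their means were 6.18 and 7.10 with ATRA, against 6.79 to 7.01 with DMSO, for erythroid genes, 8.75 and 8.22, against 9.37 to 9.89, for megakaryocyte genes, and 5.47 and 6.11, against 5.02 to 5.30, for T cell genes. The part of cell composition in the autophagy values was not tested, and fewer cells of a type and less RNA per cell cannot be told apart in such bulk samples.

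Promoter sequence is shown first, because TFEB and TFE3, the transcription factors that drive autophagy and lysosome genes, bind the E-box CACGTG. RefSeq promoters (build GRCm38.p6, 250 bases before to 50 after a start) were found for 31 of the 38 genes, with 34 promoters. CACGTG, which reads the same on both strands, stood in 5 of these 34 promoters (14.7%) and in 2349 of all 32851 promoters (7.15%). The 5 belong to Atg3, Atg5, Atg7, Atg14 and Bnip3, and Atg3 holds it 2 times. Each is given as a 30-base window, 5′ to 3′ on the strand of the gene, with the E-box in capitals and the distance of its first base from the start.
Atg3, chr16:45158723-45158752, 94 bases before the start: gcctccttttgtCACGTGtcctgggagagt
Atg3, chr16:45158746-45158775, 71 bases before the start: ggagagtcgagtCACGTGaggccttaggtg
Atg5, chr10:44268313-44268342, 14 bases before the start: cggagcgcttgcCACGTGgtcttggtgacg
Atg7, chr6:114670952-114670981, 132 bases before the start: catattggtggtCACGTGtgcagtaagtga
Atg14, chr14:47568418-47568447, 1 base before the start: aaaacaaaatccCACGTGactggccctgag
Bnip3, chr7:138909597-138909626, 108 bases before the start: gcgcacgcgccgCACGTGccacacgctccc
Atg3, Atg5 and Atg7 lie on the + strand and Atg14 and Bnip3 on the - strand. The Atg7 window lies inside the annotated gene (chr6:114643127-114860604), before an inner start. The windows of the other genes lie at or near the outer start of the gene. Other motifs were searched on both strands too. The longer E-box TCACGTGA, which contains CACGTG, stood in 1 of the 34 promoters, that of Atg3, and in 0.974% of all promoters. The FOXO motif GTAAACA stood in 0 of the 34 and in 3.65% of all, and a retinoic acid response element of the direct repeat kind (DR5) in 0 of the 34 and in 0.0548% of all. These counts describe letters in a window and say nothing about binding. With ATRA, of the 5 genes with CACGTG, Atg3 and Atg7 were lower by the test below and Atg5, Atg14 and Bnip3 did not pass it. By the same test 47.2% of the 36 measured autophagy genes and 15.5% of all genes were lower. With the level trend removed, Atg3 was at 0.27 and Atg7 at 0.37, and neither passed. A link between the motif and the differences was not tested.

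Most autophagy genes had a lower mean with ATRA than with DMSO, 33 of the 36, and none was called higher. Of the 36 measured genes, 17 fell, 0 rose and 19 did not pass a limma adjusted p of 0.05, so that 47.2% fell, while 15.5% of all genes were called lower and 6.48% higher. The median log2 difference of the 36 was -1.02, against 0.16 for all genes, and single genes lay between -2.24 for Uvrag and 0.17 for Atg12. Both ATRA values lay below all 3 DMSO values in 29 of the 36 genes (80.6%) and above them in 0, and neither held in 7. Over all genes these shares were 29.2% below and 33.0% above, and the shares by level follow further on. In ATRA replicate 1 alone the median of the 36 differences was -0.80, and in replicate 2 alone it was -1.09. Without ATRA replicate 2, 19 of the 36 passed as lower and 3 as higher, beside 21.3% and 13.3% of all genes, and without ATRA replicate 1, 28 passed as lower and 0 as higher, beside 30.6% and 33.5%, with the lone ATRA array assumed to vary like the DMSO arrays. Without any 1 of the DMSO arrays, 0 of the 36 and 0 of all genes passed. At an unadjusted p under 0.05 (limma), 18, 17 and 17 of the 36 then passed without DMSO replicates 1, 2 and 3, beside 27.0%, 27.3% and 26.6% of all genes. In the complete data 24 of the 36 had an unadjusted p under 0.05, all lower with ATRA, beside 40.3% of all genes in either direction.

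Single calls differed in how far they held under other settings. All 17 held without ATRA replicate 1, and 14 held without ATRA replicate 2, where those of Atg7 (adjusted p = 0.134), Nbr1 (adjusted p = 0.069) and Atg13 (adjusted p = 0.0577) were lost. Quantile normalization kept 7 of the 17, those of Atg13, Atg2a, Atg4a, Atg9a, Nbr1, Pik3r4 and Uvrag. Cyclic loess normalization kept 6, those of Atg2a, Atg2b, Atg9a, Nbr1, Pik3r4 and Uvrag. An intensity trend with a robust prior ended the calls of Atg7 (adjusted p = 0.0614) and Sqstm1 (adjusted p = 0.105), and adjustment over all features ended that of Atg7 (adjusted p = 0.0693).

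**Figure D1:**
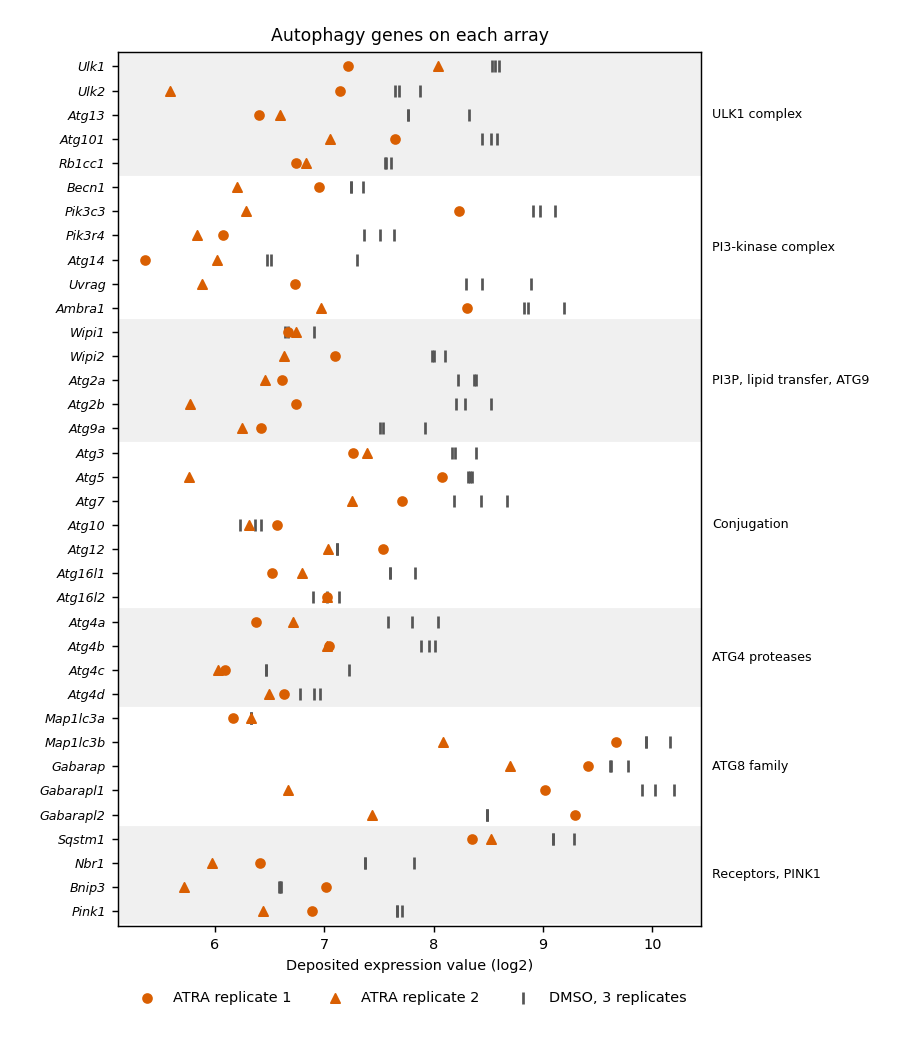
Deposited log2 values of the 36 measured autophagy genes on each of the 5 arrays, grouped by role from top to bottom, with ATRA replicates as orange circles and triangles and DMSO replicates as grey bars (equal DMSO values fall on 1 bar). In 29 genes both orange marks lie left of every grey bar, and the ATRA marks are over 1 log2 unit apart in 8 genes.

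These counts were set beside the level of the genes, because the DMSO means of the autophagy genes lay from 6.33 to 10.04, while the median of all genes was 6.20. Among the 13 autophagy genes with a DMSO mean from 7 to 8, 9 fell, and 28.1% of all 3409 genes of that level were called lower. Their median difference was -1.02, against -0.64 for all genes of that level. Among the 12 genes from 8 to 9, 7 fell, beside 52.4% of all genes, with medians of -1.24 and -1.33. Of the 4 genes from 9 to 11, only Sqstm1 fell, beside 55.9% of all genes, and the median of the 4 was -0.93, against -2.03. Of the 7 genes from 6 to 7, 0 fell, beside 2.65% of all genes. The median of the autophagy genes thus lay below that of all genes of their level from 7 to 8, close to it from 8 to 9, and above it from 9 to 11, and these gaps were not tested. Both ATRA values lay below all DMSO values in 3 of the 7 genes from 6 to 7, beside 14.7% of all genes. From 7 to 8 this held for 11 of the 13, beside 61.9%. From 8 to 9 it held for 11 of the 12, beside 81.9%, and from 9 to 11 for all 4, beside 83.9%. With the level trend removed, 1 of the 36 fell, Pik3r4, and 2 rose, Map1lc3b and Gabarap, while 1.01% of all genes were called lower and 2.28% higher, and the median of the 36 was -0.14. Of the 17 genes that fell in the deposited values, 12 stayed negative and 5 turned positive in that fit, these being Atg101, Atg3, Atg7, Atg4b and Sqstm1.

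**Figure D2:**
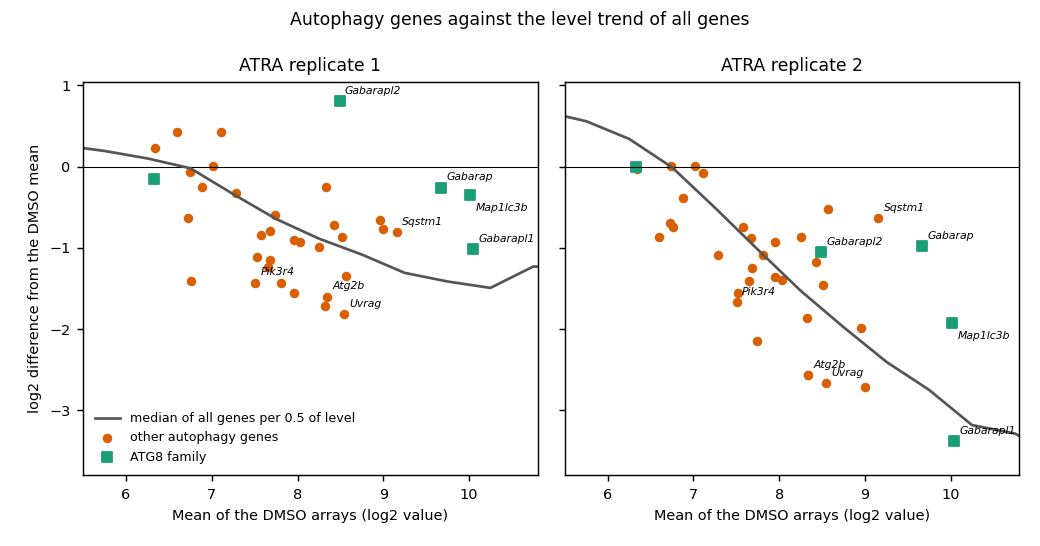
Difference of each autophagy gene from its DMSO mean in ATRA replicate 1 (left) and replicate 2 (right), against its DMSO mean, both in log2 units, with the median of all genes as a grey line. The line falls with the level and more steeply in replicate 2, Pik3r4 and Uvrag lie below it in both arrays, and Gabarap, Map1lc3b and Gabarapl2 lie above it in both.

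The 2 ATRA arrays differed more from each other than the DMSO arrays did. The gap between the ATRA values of a gene had a median of 0.45, while the SD of the DMSO values had a median of 0.11 and a maximum of 0.47. Replicate 2 gave the lower ATRA value in 25 genes and the higher in 10, and in the remaining gene, Atg16l2, both values were the same. Of the 20 genes whose ATRA values lay within 0.5 of each other, 14 fell, and of the 8 genes whose ATRA values were over 1 apart, 0 passed the test. The gap between the ATRA arrays enters the SE of that test, so a wide gap by itself makes a call less likely. Across the 36 genes, which share the arrays and are not independent, the difference in ATRA replicate 1 correlated with that in replicate 2 at Pearson's r = 0.45, and with the DMSO mean at -0.26, while the difference in replicate 2 correlated with the DMSO mean at -0.65. The DMSO mean enters both sides of each of these correlations, that between the ATRA replicates included.

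The ULK1 complex receives the signals of nutrient and energy state that start autophagy, and 3 of its 5 genes fell. Beside this count and those of the later roles, 15.5% of all genes were called lower. The share was 28.1% at a DMSO mean from 7 to 8, 52.4% from 8 to 9 and 55.9% from 9 to 11. Both ATRA values lay below all DMSO values in 61.9%, 81.9% and 83.9% of all genes at these levels. The gaps between role counts and shares were not tested. Rb1cc1, which encodes the scaffold FIP200, had 6.74 and 6.84 in the ATRA arrays, against 7.61, 7.56 and 7.56 in the DMSO arrays (log2 difference -0.79, SE 0.11, adjusted p = 0.0161). Atg13, the adaptor that holds the kinase to the scaffold, had 6.40 and 6.60 in the ATRA arrays, against 8.33, 7.77 and 7.77 in the DMSO arrays (log2 difference -1.46, SE 0.23, adjusted p = 0.0206). Atg101, the partner that stabilises ATG13, had 7.65 and 7.06 in the ATRA arrays, against 8.53, 8.58 and 8.44 in the DMSO arrays (log2 difference -1.16, SE 0.21, adjusted p = 0.0281). The groups did not overlap in any of these genes, and the ATRA arrays lay close together in Rb1cc1 and Atg13. The kinase genes themselves did not pass. Ulk1 had 7.22 and 8.04 in the ATRA arrays, against 8.56, 8.60 and 8.53 in the DMSO arrays (log2 difference -0.93, SE 0.27, adjusted p = 0.0753), and it was one of the genes that were lower in replicate 1 than in replicate 2. Ulk2 had 7.14 and 5.58 in the ATRA arrays, against 7.88, 7.65 and 7.68 in the DMSO arrays (log2 difference -1.37, SE 0.49, adjusted p = 0.112), with both ATRA values below the DMSO values, at -0.59 in replicate 1 and -2.15 in replicate 2 from the DMSO mean. None of the 5 passed once the level trend was removed. The differences then were -0.09 for Rb1cc1, -0.47 for Atg13, 0.21 for Atg101, 0.47 for Ulk1 and -0.55 for Ulk2, so the sign of Atg101 and Ulk1 turned.

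The class III PI3-kinase complex makes PI3P on the membrane from which the autophagosome grows. Its regulatory subunit gene Pik3r4, which encodes VPS15, was the only one of the 36 that fell both in the deposited values and with the level trend removed. It had 6.07 and 5.83 in the ATRA arrays, against 7.51, 7.64 and 7.36 in the DMSO arrays, a fall by 1.55 on the log2 scale (SE 0.15, limma adjusted p = 0.0089), or 2.93-fold lower on the scale of the deposited values. The ATRA values were close to each other and more than 1 log2 unit below the lowest DMSO value. Without the level trend the difference was -0.90 (SE 0.14, adjusted p = 0.0456). The call was also kept after centring of the arrays and without either ATRA array, and it was lost without any 1 of the DMSO arrays (adjusted p from 0.0676 to 0.0693).

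Uvrag, the subunit of the endosomal form of the same complex, had the largest difference of the 36 genes. It had 6.73 and 5.88 in the ATRA arrays, against 8.44, 8.30 and 8.89 in the DMSO arrays (log2 difference -2.24, SE 0.34, adjusted p = 0.0187), which is 4.73-fold lower, with no overlap of the groups, and without the level trend it differed by -0.85 (SE 0.22, adjusted p = 0.109). Atg14, the subunit that directs the kinase to autophagosome formation, had 5.36 and 6.02 in the ATRA arrays, against 6.51, 7.30 and 6.48 in the DMSO arrays (log2 difference -1.08, SE 0.36, adjusted p = 0.1), and it changed little with the level trend removed (-0.99, adjusted p = 0.177). The catalytic subunit gene Pik3c3, which encodes VPS34, had 8.23 and 6.28 in the ATRA arrays, against 9.11, 8.90 and 8.98 in the DMSO arrays (log2 difference -1.74, SE 0.60, adjusted p = 0.106). Both ATRA values lay below the DMSO values, at -0.77 and -2.72 from the DMSO mean, and without ATRA replicate 2 the gene passed as lower (adjusted p = 0.0307). Becn1, the Beclin 1 gene (6.95 and 6.20 with ATRA, against 7.35, 7.25 and 7.25 with DMSO), and Ambra1, which links Beclin 1 to the ULK1 complex (8.31 and 6.97 with ATRA, against 8.86, 9.19 and 8.82 with DMSO), also had both ATRA values below the DMSO values, further in replicate 2, and did not pass (adjusted p = 0.114 and 0.0965). In all, 2 of the 6 genes fell and in all 6 the ATRA values lay below the DMSO values. At DMSO means from 8 to 9, 52.4% of all genes were called lower and 81.9% lay below in both ATRA arrays. After removal of the level trend, 5 of the 6 were negative and Ambra1 was positive at 0.33. Pik3c3 was then near 0, at -0.07 (SE 0.29, adjusted p = 0.913), and Becn1 was at -0.23 (SE 0.20, adjusted p = 0.524).

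The next step binds PI3P and feeds lipid into the membrane, and 4 of its 5 genes fell. Of all genes, 28.1% with a DMSO mean from 7 to 8 and 52.4% from 8 to 9 were called lower. Atg2a encodes a protein that transfers lipid from the endoplasmic reticulum to the growing membrane. It had 6.61 and 6.46 in the ATRA arrays, against 8.38, 8.22 and 8.37 in the DMSO arrays (log2 difference -1.79, SE 0.13, adjusted p = 0.00683), the smallest adjusted p of the 36 genes. Its relative Atg2b had 6.74 and 5.77 in the ATRA arrays, against 8.29, 8.53 and 8.21 in the DMSO arrays (log2 difference -2.08, SE 0.33, adjusted p = 0.0207). Both were below all DMSO values in both ATRA arrays, Atg2a at 3.46-fold lower and Atg2b at 4.24-fold lower. Atg9a, the gene of the lipid scramblase that travels in vesicles to the membrane, had 6.42 and 6.24 in the ATRA arrays, against 7.51, 7.53 and 7.92 in the DMSO arrays (log2 difference -1.32, SE 0.18, adjusted p = 0.0158). Wipi2, the PI3P-binding protein that recruits ATG16L1, had 7.10 and 6.63 in the ATRA arrays, against 8.10, 7.99 and 8.01 in the DMSO arrays (log2 difference -1.17, SE 0.18, adjusted p = 0.0201). Its relative Wipi1 did not differ beyond the spread, with 6.67 and 6.74 in the ATRA arrays, against 6.67, 6.91 and 6.64 in the DMSO arrays (log2 difference -0.03, SE 0.14, adjusted p = 0.849). After removal of the level trend they differed by -0.54 for Atg2a (adjusted p = 0.187), -0.83 for Atg2b (adjusted p = 0.0789), -0.56 for Atg9a, -0.13 for Wipi2 and 0.04 for Wipi1, and none passed.

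Among the conjugation enzymes, 3 of 7 genes fell and 4 did not pass. Atg7 encodes the E1-like enzyme that activates both ATG12 and the ATG8 proteins, and its deletion in the blood system of mice is known to deplete HSCs. It had 7.71 and 7.25 in the ATRA arrays, against 8.68, 8.43 and 8.19 in the DMSO arrays (log2 difference -0.95, SE 0.23, adjusted p = 0.0496), just past the threshold. Atg3, the E2-like enzyme for ATG8 proteins, had 7.26 and 7.39 in the ATRA arrays, against 8.38, 8.20 and 8.17 in the DMSO arrays (log2 difference -0.93, SE 0.13, adjusted p = 0.0169), with close values within each group. Atg16l1, which places the conjugation machinery on the membrane, had 6.52 and 6.79 in the ATRA arrays, against 7.60, 7.83 and 7.60 in the DMSO arrays (log2 difference -1.02, SE 0.16, adjusted p = 0.0197). Once the level trend was removed, these 3 genes differed by 0.37, 0.27 and -0.24 and did not pass, and Atg7 and Atg3 also turned positive after cyclic loess normalization.

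The other conjugation genes did not move together. Atg5, the partner to which ATG12 is attached, had 8.08 and 5.77 in the ATRA arrays, against 8.31, 8.35 and 8.33 in the DMSO arrays (log2 difference -1.41, SE 0.71, adjusted p = 0.205). Both ATRA values lay below the DMSO values, at -0.25 in replicate 1 and -2.57 in replicate 2 from the DMSO mean, and with either ATRA array left out the gene passed as lower (adjusted p = 0.0231 without replicate 2 and 0.00163 without replicate 1). Atg12, the ubiquitin-like protein of this system, had 7.54 and 7.03 in the ATRA arrays, against 7.11, 7.11 and 7.11 in the DMSO arrays (log2 difference 0.17, SE 0.19, adjusted p = 0.471), with replicate 1 above and replicate 2 below DMSO values that were the same to the last digit. Atg10, the E2-like enzyme for ATG12, had 6.57 and 6.31 in the ATRA arrays, against 6.37, 6.22 and 6.42 in the DMSO arrays (log2 difference 0.10, SE 0.14, adjusted p = 0.581). Atg16l2, a relative of Atg16l1, had 7.03 and 7.03 in the ATRA arrays, against 7.13, 6.89 and 7.03 in the DMSO arrays (log2 difference 0.01, SE 0.13, adjusted p = 0.955). In Atg10, Atg12 and Atg16l2 the groups overlapped.

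The ATG4 proteases trim new ATG8 proteins before conjugation and release them from membranes afterwards. Of the 4 genes, Atg4b and Atg4a fell and Atg4c and Atg4d did not pass, and both ATRA values lay below the DMSO values in each. Atg4b, the main ATG4 enzyme for LC3, had 7.04 and 7.02 in the ATRA arrays, against 7.96, 8.01 and 7.89 in the DMSO arrays (log2 difference -0.92, SE 0.11, adjusted p = 0.0123), with ATRA values that were nearly the same. Atg4a had 6.38 and 6.72 in the ATRA arrays, against 8.04, 7.59 and 7.80 in the DMSO arrays (log2 difference -1.26, SE 0.20, adjusted p = 0.0213). Atg4c (6.09 and 6.03 with ATRA, against 7.23, 6.47 and 6.47 with DMSO) and Atg4d (6.63 and 6.50 with ATRA, against 6.90, 6.78 and 6.96 with DMSO) differed by -0.66 (adjusted p = 0.158) and -0.32 (adjusted p = 0.134). None of the 4 passed without the level trend, where the differences were 0.06 for Atg4b, -0.39 for Atg4a, -0.60 for Atg4c and -0.15 for Atg4d.

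The ATG8 family was the only role in which no gene fell in the fit of all 5 arrays. Its members are the ubiquitin-like proteins that are coupled to the autophagosome membrane and bind the cargo receptors. LC3B, encoded by Map1lc3b, is the usual marker of autophagosomes. The ATRA arrays were 2.36 apart in Gabarapl1, 1.85 in Gabarapl2, 1.58 in Map1lc3b, 0.72 in Gabarap and 0.16 in Map1lc3a. A wide gap raises the SE, so a missing call does not show an absence of change. Map1lc3b had 9.67 and 8.09 in the ATRA arrays, against 9.94, 10.16 and 9.94 in the DMSO arrays (log2 difference -1.14, SE 0.50, adjusted p = 0.162). Gabarap had 9.41 and 8.69 in the ATRA arrays, against 9.61, 9.62 and 9.78 in the DMSO arrays (log2 difference -0.62, SE 0.25, adjusted p = 0.138). In both genes the ATRA values were below all DMSO values, further in replicate 2. Gabarap has a second feature that names it alone, with 6.38 and 6.53 in the ATRA arrays, against 6.68, 6.70 and 6.70 in the DMSO arrays.

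Relative to genes of the same level, Map1lc3b and the brighter feature of Gabarap stood higher. The second feature of Gabarap did not, at -0.24 (limma, p adjusted over all features = 0.258). Genes with a DMSO mean from 6 to 7 had a median difference of 0.14. The values of Gabarap that follow are those of its brighter feature. The 1689 genes whose DMSO mean was 9 to 11 had median differences of -1.37 in ATRA replicate 1 and -2.73 in replicate 2. Map1lc3b differed by -0.34 and -1.93 in these arrays, and Gabarap by -0.26 and -0.98. Once the level trend was removed, Map1lc3b rose by 1.09 (SE 0.14, adjusted p = 0.0326) and Gabarap by 1.44 (SE 0.23, adjusted p = 0.0444). When the trend was taken on the mean of all 5 arrays, Map1lc3b passed at 0.75 (adjusted p = 0.0484) and Gabarap did not at 1.24 (adjusted p = 0.0726), and after cyclic loess normalization neither passed, at 0.64 (adjusted p = 0.0711) and 1.11 (adjusted p = 0.0963). After quantile normalization Map1lc3b differed by -0.46 (adjusted p = 0.338) and Gabarap by 0.11 (adjusted p = 0.633), so the sign of each gene differed between settings.

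The other ATG8 genes differed among themselves. Gabarapl1 had 9.02 and 6.67 in the ATRA arrays, against 10.20, 9.91 and 10.02 in the DMSO arrays (log2 difference -2.20, SE 0.73, adjusted p = 0.0974), the second largest negative difference of the 36 genes, with ATRA arrays 2.36 apart, and with the level trend removed it differed by 0.04 (adjusted p = 0.939). Gabarapl2 had 9.29 and 7.44 in the ATRA arrays, against 8.49, 8.49 and 8.49 in the DMSO arrays (log2 difference -0.12, SE 0.57, adjusted p = 0.867), so that the ATRA arrays lay on opposite sides of 3 equal DMSO values. It differed by 1.23 with the level trend removed (adjusted p = 0.12) and passed as higher when the trend was taken on the mean of all 5 arrays (1.39, adjusted p = 0.0361). Map1lc3a, the gene of the LC3A form, had 6.17 and 6.33 in the ATRA arrays, against 6.33, 6.33 and 6.33 in the DMSO arrays (log2 difference -0.08, SE 0.12, adjusted p = 0.584), and its replicate 2 value was equal to all 3 DMSO values.

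**Figure D3:**
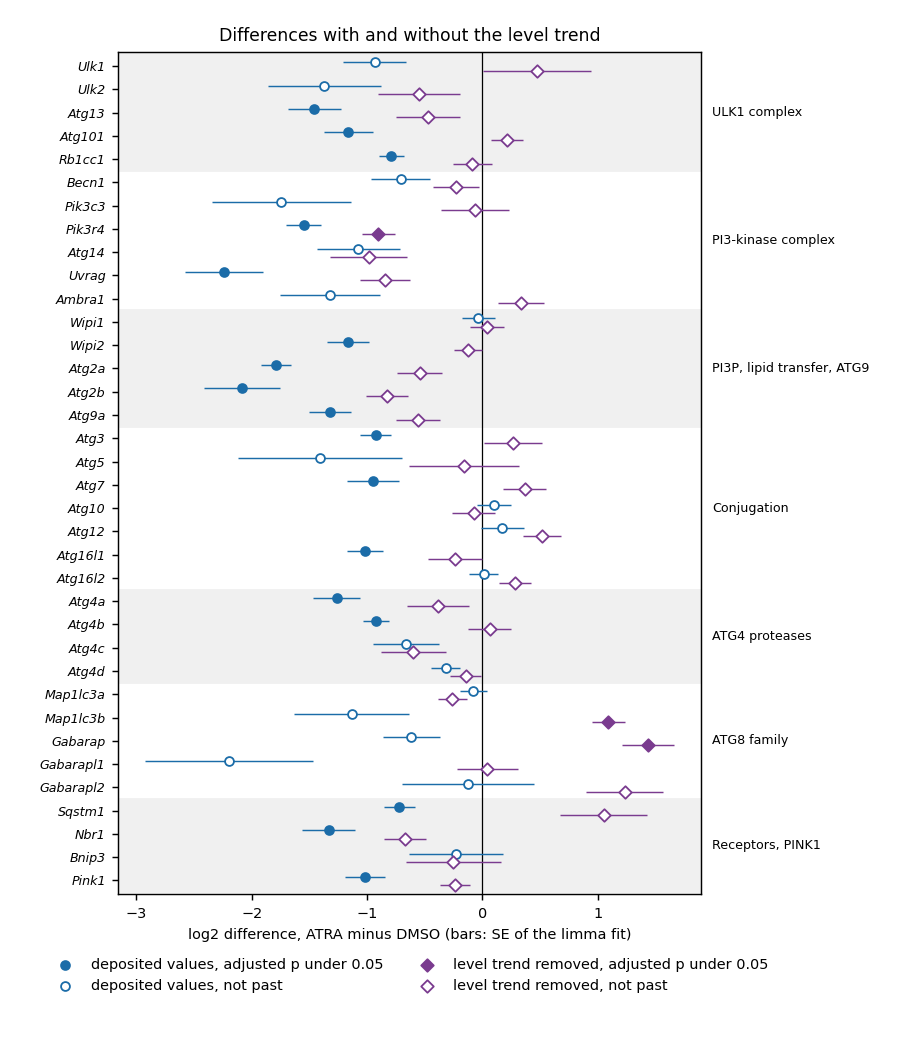
Log2 difference, ATRA minus DMSO, of each measured autophagy gene with its SE, from the deposited values (blue circles) and with the level trend removed (purple diamonds), where filled marks passed an adjusted p of 0.05. Of the blue marks 17 are filled, all left of 0, and of the purple marks 3 are filled, with Pik3r4 left of 0 and Map1lc3b and Gabarap right of it.

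Cargo receptors tie the material to be broken down to the ATG8 proteins, and PINK1 is the kinase that marks damaged mitochondria. Of the 4 genes measured here, 3 fell. Sqstm1 encodes p62, which carries ubiquitinated proteins and is itself degraded by autophagy. It had 8.35 and 8.52 in the ATRA arrays, against 9.28, 9.10 and 9.10 in the DMSO arrays (log2 difference -0.72, SE 0.13, adjusted p = 0.0291). Nbr1, a relative of p62, had 6.41 and 5.97 in the ATRA arrays, against 7.82, 7.38 and 7.38 in the DMSO arrays (log2 difference -1.33, SE 0.23, adjusted p = 0.0251). Pink1 had 6.88 and 6.44 in the ATRA arrays, against 7.66, 7.71 and 7.66 in the DMSO arrays (log2 difference -1.02, SE 0.17, adjusted p = 0.0242). In these 3 genes every ATRA value lay below every DMSO value. They parted with the level trend removed, where Sqstm1 differed by 1.05 (SE 0.38, adjusted p = 0.189), Nbr1 by -0.67 (SE 0.18, adjusted p = 0.119) and Pink1 by -0.24 (SE 0.13, adjusted p = 0.324), and none passed. Bnip3, a mitophagy receptor induced by hypoxia, had 7.01 and 5.72 in the ATRA arrays, against 6.59, 6.59 and 6.60 in the DMSO arrays (log2 difference -0.23, SE 0.41, adjusted p = 0.661), with replicate 1 above and replicate 2 below 3 nearly equal DMSO values.

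By role, the medians of the log2 differences were -1.16 for the ULK1 complex, -1.44 for the PI3-kinase complex, -1.32 for the PI3P and lipid transfer step, -0.93 for conjugation, -0.79 for the ATG4 proteases, -0.62 for the ATG8 family and -0.87 for the receptors with PINK1. They became -0.09, -0.54, -0.54, 0.27, -0.27, 1.09 and -0.25 with the level trend removed. The differences between roles were not tested, and roles with few genes rest on 4 to 7 values.

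**Figure D4:**
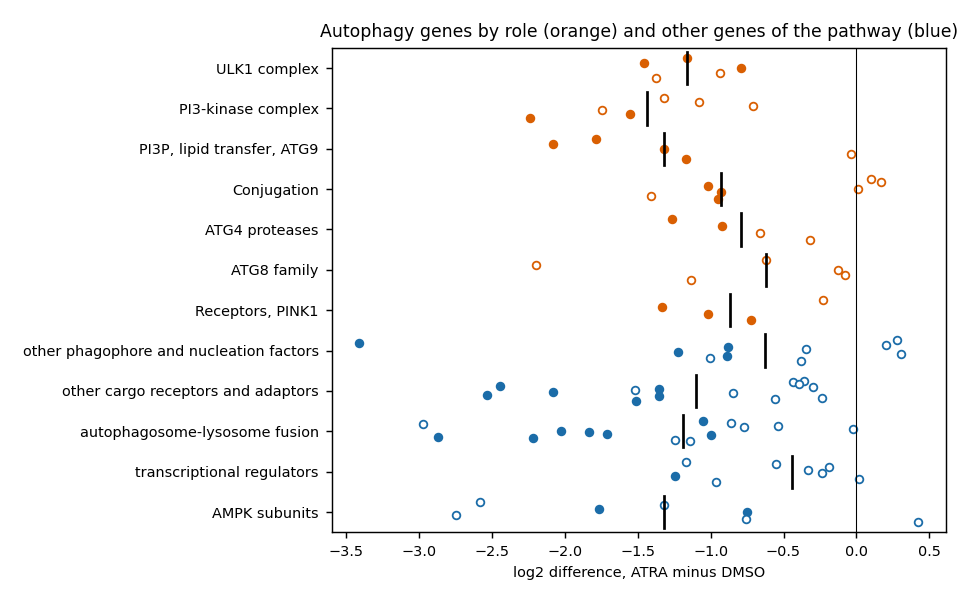
Log2 differences, ATRA minus DMSO, for the measured autophagy genes by role (orange) and for the other genes of the pathway in 5 lists (blue), where filled points passed an adjusted p of 0.05 and black lines are medians. The medians of all 12 rows are negative, from -1.44 to -0.44.

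Other genes of the pathway were examined in 5 lists, of which 53 of 54 genes were measured. In these, 20 genes fell, 0 rose and 33 did not pass, with a median of -0.96, which is close to the median of the core genes. Of all genes 15.5% were called lower and 6.48% higher. The median DMSO mean of the 53 was 7.88, and 28.1% of all genes from 7 to 8 and 52.4% from 8 to 9 were called lower. The counts of the single lists stand beside the same shares, and the gaps were not tested. In the fit without the level trend 0 fell and 4 rose, beside 1.01% and 2.28% of all genes, namely Nrbf2, Sh3glb1, Phb2 and Tex264, chosen for mention after their values were seen. The genes named next are the 2 with the smallest p in each list.

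Of 10 other factors of nucleation and membrane growth, 4 fell and 6 did not pass. Tmem41b, the gene of an endoplasmic reticulum scramblase, had 6.60 and 6.49 in the ATRA arrays, against 7.81, 7.58 and 7.91 in the DMSO arrays (log2 difference -1.22, SE 0.15, adjusted p = 0.0126). Ei24, the gene of an endoplasmic reticulum protein needed for autophagy, had 7.69 and 6.26 in the ATRA arrays, against 10.17, 10.38 and 10.60 in the DMSO arrays (log2 difference -3.41, SE 0.47, adjusted p = 0.0155), the largest difference in the 5 lists. Of 14 measured receptors and adaptors, 6 fell. Fkbp8, the gene of a mitochondrial receptor, had 7.58 and 7.14 in the ATRA arrays, against 9.89, 9.82 and 9.70 in the DMSO arrays (log2 difference -2.45, SE 0.18, adjusted p = 0.00697), and Tbk1, the gene of a kinase that phosphorylates cargo receptors, had 6.08 and 6.20 in the ATRA arrays, against 7.76, 7.33 and 7.38 in the DMSO arrays (log2 difference -1.35, SE 0.18, adjusted p = 0.0148). In these 4 genes every ATRA value was below every DMSO value, and none kept its call with the level trend removed (adjusted p from 0.0669 for Ei24 to 0.563 for Fkbp8).

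Of 14 genes for the fusion of autophagosomes with lysosomes, 7 fell. Vps33a and Vps16 encode subunits of the HOPS tethering complex that bind each other. Vps33a had 6.64 and 6.15 in the ATRA arrays, against 9.02, 9.42 and 9.35 in the DMSO arrays (log2 difference -2.87, SE 0.22, adjusted p = 0.00718), and Vps16 had 6.99 and 6.80 in the ATRA arrays, against 8.58, 8.63 and 8.61 in the DMSO arrays (log2 difference -1.71, SE 0.12, adjusted p = 0.00675). They differed by -1.04 and -0.28 with the level trend removed, without a call. Of 7 AMPK subunits, the energy sensor that activates ULK1, 2 fell. Prkab1 had 7.56 and 6.92 in the ATRA arrays, against 9.01, 9.11 and 8.90 in the DMSO arrays (log2 difference -1.77, SE 0.23, adjusted p = 0.0139), and Prkab2 had 6.81 and 6.88 in the ATRA arrays, against 7.85, 7.40 and 7.54 in the DMSO arrays (log2 difference -0.75, SE 0.18, adjusted p = 0.0468). Both differences were near 0 with the level trend removed, at -0.08 and -0.04.

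Of 8 transcriptional regulators of autophagy genes, 1 fell and 7 did not pass. Tfe3 had 6.44 and 6.81 in the ATRA arrays, against 7.81, 8.02 and 7.76 in the DMSO arrays (log2 difference -1.24, SE 0.17, adjusted p = 0.0162), and it differed by -0.32 with the level trend removed (adjusted p = 0.514). Foxo1, on its brighter feature, had 6.65 and 7.04 in the ATRA arrays, against 7.38, 7.38 and 7.43 in the DMSO arrays (log2 difference -0.55, SE 0.16, adjusted p = 0.074), below the DMSO values in both ATRA arrays. A second feature that names Foxo1 alone had 5.19 and 6.30 in the ATRA arrays, against 5.29, 5.46 and 5.46 in the DMSO arrays. Its difference was 0.34 (limma, p adjusted over all features = 0.486). Foxo3 and Tfeb, given for their known roles and chosen after their values were seen, had small differences in the deposited values. With the level trend removed the sign of each turned, and neither passed. Foxo3 was then at 0.56 (SE 0.16, adjusted p = 0.128) and Tfeb at -0.12 (SE 0.13, adjusted p = 0.609). The deposited values were as follows. Foxo3 had 7.49 and 7.40 in the ATRA arrays, against 7.80, 7.58 and 7.52 in the DMSO arrays (log2 difference -0.19, SE 0.14, adjusted p = 0.319), and Tfeb had 6.43 and 6.41 in the ATRA arrays, against 6.40, 6.40 and 6.40 in the DMSO arrays (log2 difference 0.02, SE 0.10, adjusted p = 0.903). The other 4 differed by -1.17 to -0.24, and the median of the list was -0.44.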

How the data were processed

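The authors deposited log2 expression values, 1 per array feature and array, for 5 Affymetrix arrays of RNA from sorted mouse HSCs. The submitters' processing notes list limma 3.28.20, oligo 1.36.1 and RMA without saying what each did. The build and the normalization run were not given in the sources used here. RMA summarises a feature by a median-based fit, in which arrays can receive the same value, and 11 of the 36 genes had 2 or 3 equal DMSO values. Amplification from few cells and the sort after culture can both shape the values.

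Gene names came from the platform annotation, with symbols updated by gene identifier (GRCm38 table). Of 41345 features 23521 name 1 gene, and these gave 22180 genes, without a filter on low values. ATRA was compared with DMSO by limma 3.58.1 (R 4.3.3; lmFit, eBayes, two-sided, 3 residual degrees of freedom, prior worth 1.52), p-values adjusted by Benjamini-Hochberg across the 22180 genes, threshold 0.05. All adjusted p-values come from this fit or, where named, from the same fit under another setting. With 2 against 3 arrays an exact two-sided permutation test cannot go below 0.1. The level trend was removed per array with a loess curve (span 0.3) of the difference from the DMSO mean on that mean. The fit was tested on simulated data with the same spread in both groups and no level trend. That test therefore does not cover the level trend or the wider gap between the ATRA arrays.

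The autophagy genes, the lists, the motifs and the settings were chosen with earlier results of these data known. All measured autophagy genes are named, and of each other pathway list the 2 genes with the smallest p.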

Additional observations from a re-analysis of the deposited data

How the results depend on the processing

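The count of autophagy genes past the threshold was 17, and that of all genes 4865. Leaving out 1 array in turn gave 0 to 28 autophagy genes and 0 to 14207 of all genes, with a median difference of the autophagy genes from -1.089 to -0.799, against -1.019 with all arrays. Replicate numbers 1 and 2 occur in both groups without a stated link. Samples of the same number deviated from their group means with correlations of 0.13 and 0.10 across genes. With 2 ATRA arrays the ATRA deviations of a gene are mirror images, so these correlations cannot show whether samples were paired. The samples were not treated as pairs. The replicate number as a block gave 0 and 0 (limma, 18 and 5412 at an unadjusted p under 0.05), with 1 residual degree of freedom. Quantile normalization gave 7 and 2182 with a median of -0.724, cyclic loess 6 and 2275 with -0.407, removal of the level trend 3 and 728 with -0.136, and the trend on the mean of all 5 arrays, added after seeing the data, 8 and 2173 with -0.304. Centring each array on its median moved the median of all genes from 0.16 to -0.11 and gave 19 autophagy genes with a median of -1.289, and an adjusted p under 0.1 gave 20 and 7755. The split of all genes into higher and lower calls was 1437 and 3428, but 560 and 4542 after centring, 439 and 1743 after quantile normalization, 771 and 1504 after cyclic loess, 505 and 223 with the level trend removed and 1028 and 1145 with the trend on the 5-array mean. With dim features left out, 17 autophagy genes passed as lower, but 29.6% of the 12626 genes kept did too and their median was -0.51, against 15.5% and 0.16 in the complete data. Adjustment over all features gave 16, beside 8.71% of features lower, an intensity trend with a robust prior 15, beside 14.7% of genes, and the mean of a gene's features 17, beside 15.1%. 

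Signs that turned were the following. With the level trend removed, Ulk1 was at 0.473, Atg101 at 0.210, Ambra1 at 0.334, Wipi1 at 0.038, Atg3 at 0.267, Atg7 at 0.367, Atg10 at -0.076, Atg4b at 0.062, Map1lc3b at 1.091, Gabarap at 1.436, Gabarapl1 at 0.042, Gabarapl2 at 1.232 and Sqstm1 at 1.053. With the trend on the 5-array mean, Ulk1 was at 0.440, Atg101 at 0.120, Ambra1 at 0.189, Wipi1 at 0.074, Atg3 at 0.243, Atg7 at 0.333, Atg10 at -0.075, Atg4b at 0.023, Map1lc3b at 0.746, Gabarap at 1.238, Gabarapl2 at 1.390 and Sqstm1 at 0.983. After cyclic loess, Ulk1 was at 0.252, Ambra1 at 0.002, Atg3 at 0.048, Atg7 at 0.143, Atg10 at -0.132, Map1lc3b at 0.639, Gabarap at 1.113, Gabarapl2 at 1.203 and Sqstm1 at 0.811. After quantile normalization, Wipi1 was at 0.004, Atg10 at -0.058, Gabarap at 0.114, Gabarapl2 at 0.467 and Sqstm1 at 0.098, and after centring, Atg10 was at -0.170, Atg12 at -0.099 and Atg16l2 at -0.260. With 1 array left out, the differences spanned -0.027 to 0.228 for Atg10, -0.083 to 0.426 for Atg12, -0.051 to 0.066 for Atg16l2, -0.083 to 0.050 for Wipi1, -0.873 to 0.421 for Bnip3 and -1.050 to 0.800 for Gabarapl2. The causes were not tested. The 5 arrays and the disagreement of the 2 ATRA arrays limit every value.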

Other observations

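A feature that names Bnip3l, a mitophagy receptor gene, together with its pseudogene Bnip3l-ps had 9.72 and 8.25 in the ATRA arrays, against 9.22, 9.23 and 9.22 in the DMSO arrays, so that the ATRA arrays lay on both sides of the DMSO values. A feature that names Becn1 together with Cntd1 had 5.29 and 5.75 in the ATRA arrays, against 5.37, 5.13 and 5.19 in the DMSO arrays. Transcripts of the named genes cannot be told apart on such features.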
